A study of Mus musculus with 2 samples.

Results

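Heat shock chaperones are proteins that help other proteins fold, and 10 genes of this class are described here by the compartment in which their products work. They were chosen by name, with earlier results of these data known. The cytosol is represented by Hsp90aa1, Hsp90ab1, Hspa8, Hspb1 and Dnaja1, the endoplasmic reticulum by Hspa5 and Hsp90b1, and mitochondria by Hspa9, Hspd1 and Hspe1. All 10 were found among 15622 genes with at least 1 read, and 32 of their 59 annotated transcripts had reads. Native RNA with poly(A) tails was read on a nanopore, from the 3' end, in brown fat from between the shoulder blades, a tissue that makes heat. There was 1 control and 1 cold library from male wild-type C57BL/6N mice of 20 weeks, with 1698124 and 1215617 reads. Mice of the cold group spent 24 h at 4 °C in single cages, and 3 were pooled. Normal housing was at 22 to 24 °C. The control treatment is given as ctrl alone, its pool size is not given in the sources used here, and the protocol text of both samples describes the cold exposure. The extraction text names another fat depot. Ucp1, the uncoupling protein that defines brown adipocytes, had 14860 reads in control RNA and 14526 in cold RNA. The cold library was the smaller. Scaled to library size as described below, the cold to control ratio of Ucp1 was 1.21 (counting interval 1.18 to 1.23). Scaled by total counts, the ratio of Ucp1 was 1.37 (1.33 to 1.40).

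HSP70 proteins bind short greasy stretches of unfolded proteins and release them as they split ATP, with J-domain proteins delivering the substrate. HSP90 proteins act later, on clients that are nearly folded, and small heat shock proteins hold unfolded proteins in solution without ATP. Each compartment has its own set: Hspa5 (BiP) and Hsp90b1 (GRP94) fold secreted proteins in the endoplasmic reticulum, and Hspa9 (mortalin) pulls imported chains into mitochondria, where the Hspd1 and Hspe1 chaperonin folds them. Brown adipocytes import much of the machinery of heat production into their mitochondria.

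The comparison asks whether the mRNAs of these chaperones differ in brown fat after a day in the cold. The chaperones of the cytosol and of the endoplasmic reticulum had more reads in the cold library, by 1.40 to 1.96-fold in 6 of 7 genes. Those of mitochondria stood at 1.01 to 1.22-fold, and of these only Hspa9 had a counting interval above 1. Ratios are of counts scaled by the trimmed mean of M-values (TMM), under which the median gene stood at a log2 ratio of 0.00. The values in parentheses are 95% counting intervals. With 1 library per group no test of the conditions was possible, and an interval compares these 2 libraries only. In a whole tissue, more RNA per cell and more cells of a type cannot be told apart.

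The interval lay above a ratio of 1 for 7 of the 10 genes and below it for 0. Over all genes with at least 20 summed reads, 11.3% had an interval above 1 and 11.3% one below. Intervals narrow with reads, and the 10 genes had 225 to 1945 summed reads. Among the 2677 genes with at least 100, the shares were 19.2% above and 20.1% below. Since the 10 genes were chosen with earlier results of these data known, their count beside these shares is a description and not a test. By compartment, the interval lay above 1 for 4 of 5 genes of the cytosol, 2 of 2 of the endoplasmic reticulum and 1 of 3 of mitochondria. With TMM scaling, 0 of the 10 reached at least 2-fold with an interval away from 1. Of all genes with at least 20 reads, 4.20% did so upwards and 4.08% downwards (316 and 307 genes, or 522 and 189 with total counts). With at least 100 reads the share upwards was 3.47%. Scaling by total counts raised all log2 ratios by 0.18, and 9 of the 10 intervals then lay above 1. Of all 7529 genes with at least 20 summed reads, 1364 then lay above 1 and 467 below. Hsp90aa1 at 2.22 (1.79 to 2.77) and Hspb1 at 2.16 (1.76 to 2.66) then passed 2-fold, with intervals above 1. With total counts without mitochondrially encoded genes, their log2 ratios were 1.10 and 1.06.

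**Figure D1:**
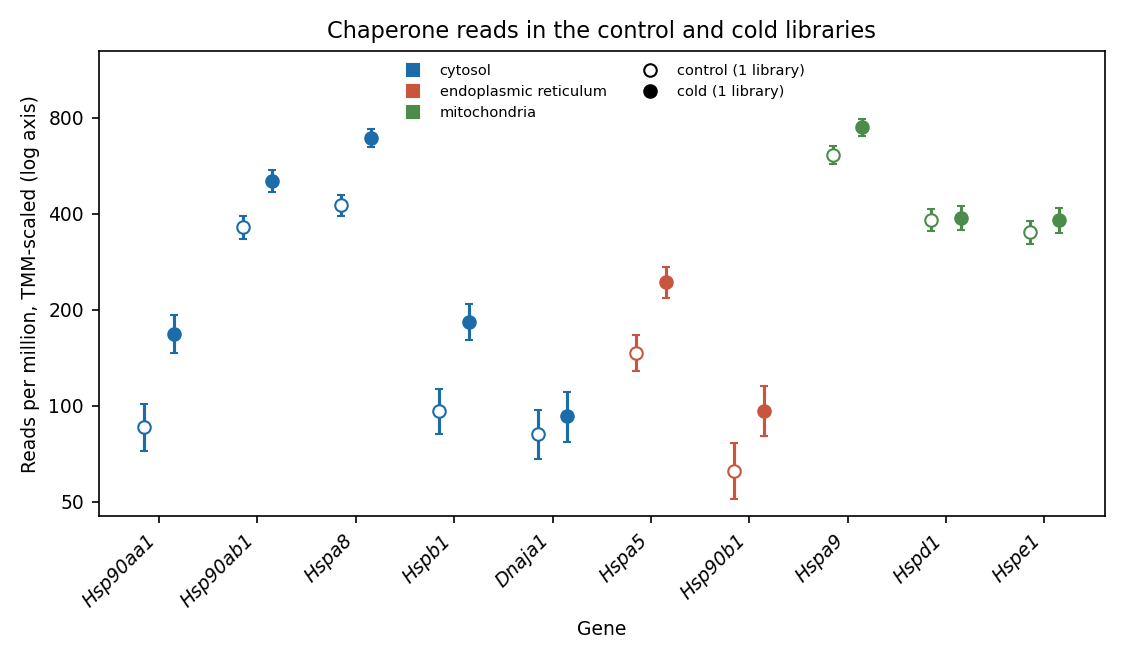
Levels in RPM, the reads of a gene per 1000000 reads of the TMM-scaled library (log axis), for the 10 chaperone genes in the control (open circles) and cold (filled circles) library, with exact 95% Poisson intervals, coloured by compartment. Hsp90aa1 lies at 85.9 and 168 RPM, and Hspd1 at 384 and 390.

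Levels spread widely among the 10 genes. On the RPM scale in the control library, Hspa9 was highest at 613 (575 to 653). Hspa8 at 427 (395 to 460) overlapped Hspd1 at 384 (354 to 416), which in turn overlapped Hsp90ab1 at 364 (335 to 394) and Hspe1 at 351 (323 to 381). Hspa5 stood apart at 147 (128 to 167). Hspb1 at 96.5 (81.9 to 113), Hsp90aa1 at 85.9 (72.1 to 102) and Dnaja1 at 81.5 (68.1 to 96.8) overlapped each other. Hsp90b1 at 62.7 (51.0 to 76.2) overlapped Dnaja1 and Hsp90aa1 but not Hspb1. In this assay 1 read stands for 1 RNA molecule, so reads do not grow with transcript length. RPM is therefore the measure of level here, and an order of values divided by length is not one of RNA molecules. Divided by the mean length of the transcripts read, the order in the control began with Hspe1 at 452 (RPM divided by kilobases). Next in it were Hspa9 at 202, Hspd1 at 159, Hspa8 at 146 and Hsp90ab1 at 145. It ended with Hsp90b1 at 20.9 and Dnaja1 at 20.4 on that scale. The main transcript of Hspe1, with 774 bases, is short.

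Of the cold reads, Hspa9 and Hspa8 lay at 747 (701 to 796) and 694 (649 to 741) RPM, with overlapping intervals. Hsp90ab1 at 508 (470 to 548) stood above Hspd1 at 390 (356 to 425) and Hspe1 at 383 (350 to 418), with intervals that did not overlap theirs. In the control library Hsp90ab1 had shared their range. The plot of RPM by gene shows both shifts.

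Both HSP90 genes of the cytosol had more reads in the cold library, in unequal measure. Hsp90aa1, the stress-inducible HSP90 of the cytosol (chromosome 12, 110690605 to 110702728 on GRCm38), had 137 reads in control RNA and 218 in cold RNA. Its ratio was 1.96 (1.58 to 2.45), and 102 of the 2677 genes with at least 100 reads had a higher log2 ratio. Hsp90ab1, the constitutive form (chromosome 17, 45567775 to 45573271), had 580 and 657 reads, a ratio of 1.40 (1.25 to 1.56). The pair can be compared without any library scaling: Hsp90aa1 made up 19.1% (16.3 to 22.2) of the reads of both genes in control RNA and 24.9% (22.1 to 27.9) in cold RNA. That difference was 5.81 percentage points (1.71 to 9.83). The constitutive gene thus still held most HSP90 reads of the cytosol in both libraries.

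Hspa8, the constitutive HSP70 of the cytosol (chromosome 9, 40800984 to 40810087), had 681 and 898 reads. Its ratio was 1.63 (1.47 to 1.80), and 192 genes of the 2677 lay above it. Dnaja1, a J-domain partner of this HSP70 (chromosome 4, 40722150 to 40737149), had 130 and 120 reads. With a ratio of 1.14 (0.881 to 1.47), it was the member of the cytosol whose interval held 1. That interval does not reach the ratio of Hspa8. Its locus overlaps Smu1 on the other strand, with 42 and 36 reads of its own, and whether counting used strand is not given in the sources used here. Hspb1, a small heat shock protein also known as HSP25 (chromosome 5, 135887919 to 135889563), had 154 and 238 reads, a ratio of 1.91 (1.55 to 2.35). Only Hsp90aa1 among the 10 had a higher ratio.

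**Figure D2:**
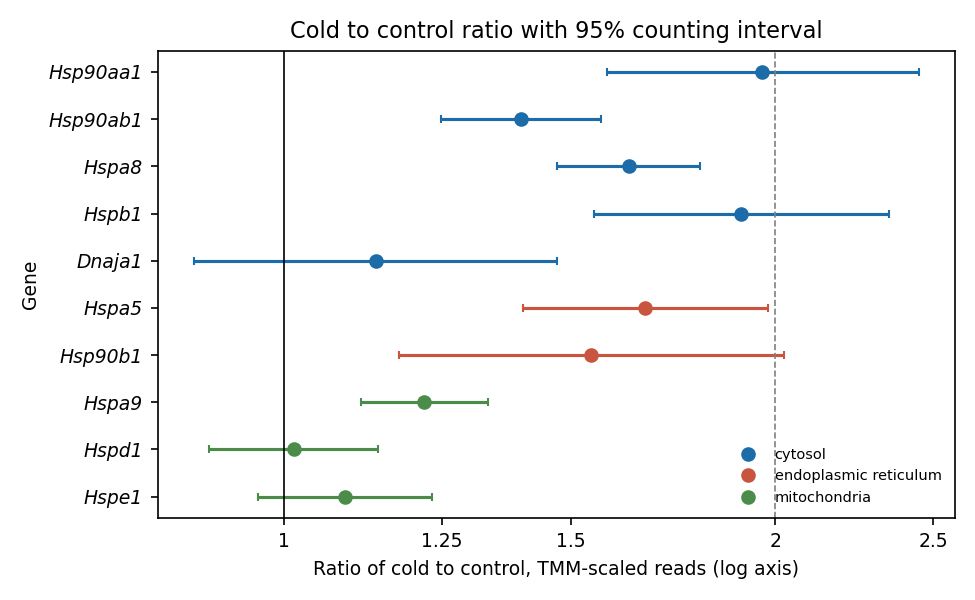
Ratio of cold to control in TMM-scaled reads (log axis) for each of the 10 genes, with 95% counting intervals, coloured by compartment; the solid line marks a ratio of 1 and the dashed line 2. The mitochondrial genes sit at 1.01 to 1.22, and the genes of the endoplasmic reticulum at 1.54 and 1.67.

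Promoter windows (RefSeq, GRCm38.p6, 250 bases before to 50 after a start) were at hand for Hspb1 and Dnaja1 among the genes of the cytosol. Heat shock factor is known to bind repeats of GAA and TTC, and 2 forms of the pair were searched, GAANNTTC and TTCNNGAA, each of which reads the same on both strands. At least 1 pair was found in 15.1% of all 32851 windows. Hspb1 held 2 pairs, and Dnaja1 held 1 in 1 of its 3 windows. The stretches before the start are shown with each pair in capitals, 5' to 3', for Hspb1 at chr5:135887769-135887918 (plus strand) and for Dnaja1 at chr4:40722318-40722467 (plus strand).
Hspb1: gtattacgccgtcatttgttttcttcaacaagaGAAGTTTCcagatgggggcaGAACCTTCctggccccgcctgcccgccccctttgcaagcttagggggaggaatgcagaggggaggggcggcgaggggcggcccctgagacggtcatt
Dnaja1: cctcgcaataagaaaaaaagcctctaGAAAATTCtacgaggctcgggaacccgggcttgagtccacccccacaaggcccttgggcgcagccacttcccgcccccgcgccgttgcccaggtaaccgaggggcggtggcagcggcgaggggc
Both windows thus hold the letters, while the ratios of the 2 genes were 1.91 and 1.14. A match of letters is a description and not a bound site, and its part in these ratios was not tested.

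In the endoplasmic reticulum both chaperones had more reads in the cold library. Hspa5, the HSP70 of this compartment which also binds the sensors of the unfolded protein response (chromosome 2, 34771970 to 34777547), had 234 reads in control RNA and 316 in cold RNA, a ratio of 1.67 (1.40 to 1.98). Hsp90b1, its HSP90 (chromosome 10, 86690209 to 86705509), had 100 and 125 reads, a ratio of 1.54 (1.18 to 2.03). Hsp90b1 overlaps 1810014B01Rik on the other strand, with 23 and 18 reads. It made up 29.9% (25.1 to 35.2) of the reads of Hsp90b1 and Hspa5 in control RNA and 28.3% (24.2 to 32.8) in cold RNA, a difference of -1.60 points (-8.09 to 4.80). Beside Hspa8, the HSP70 of the cytosol, Hspa5 made up 25.6% (22.8 to 28.5) and 26.0% (23.6 to 28.6) of their reads. The interval of that difference ran from -3.32 to 4.18 points, so a shift of a few points between the compartments cannot be told from none.

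The endoplasmic reticulum stress element, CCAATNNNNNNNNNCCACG, is known as a site of ATF6 and NF-Y, and was searched on both strands. It was found in 39 of 32851 windows, or 0.119%. Both genes of the endoplasmic reticulum held it, Hsp90b1 with 2 matches, the second of them on the other strand. The heat shock pair was in neither window. The element is in capitals here, at chr10:86705510-86705694 (minus strand) for Hsp90b1 and at chr2:34772020-34772048 (plus strand), just before the RefSeq start, for Hspa5. In Hspa5 the element lies after the annotated start of Hspa5-201 (34771970), a form with 92 and 143 reads. It lies before the start of Hspa5-202 (34772095), a form with 139 and 173 reads.
Hsp90b1: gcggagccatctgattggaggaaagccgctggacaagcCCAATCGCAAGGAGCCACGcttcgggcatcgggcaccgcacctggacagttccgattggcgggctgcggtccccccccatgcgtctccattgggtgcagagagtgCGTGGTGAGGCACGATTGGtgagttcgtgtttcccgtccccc
Hspa5: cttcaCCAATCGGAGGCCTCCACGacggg
Of 24 genes on the 3 lists of the endoplasmic reticulum with a window, 7 held the element, against 37 of 27025 symbols in all. Besides the 2 chaperones these were Calr, Canx, Dnajc3, Pdia6 and Creld2, named here because they hold it. Calr, the lectin chaperone calreticulin, had 261 and 378 reads, a ratio of 1.79 (1.52 to 2.10). Its membrane-bound relative Canx was at 1.41 (1.11 to 1.79) and Dnajc3, a J-domain partner of Hspa5, at 1.81 (1.15 to 2.89). The disulfide isomerase Pdia6 was at 1.13 (0.816 to 1.56). Creld2 had 18 and 7 reads, a ratio of 0.480 (0.169 to 1.20), with an interval that held 1. Of the 15 measured genes of these lists with a window but no match, 2 had an interval above 1, Serpinh1 and Txndc5. Their median log2 ratio was 0.23. That of the 7 genes with the element, which include Hspa5 and Hsp90b1, was 0.62, the value of Hsp90b1 itself. No test of this difference was made, and the part of the element in these ratios was not tested.

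In mitochondria the differences were smaller. Hspa9, the HSP70 of the matrix and of protein import, had 978 reads in control RNA and 967 in cold RNA. Scaled to library size, the ratio was 1.22 (1.11 to 1.33), and 670 of the 2677 genes had a higher log2 ratio. Hspd1, the large chaperonin subunit HSP60 (chromosome 1, 55077835 to 55088243), had 613 and 504 reads, a ratio of 1.01 (0.899 to 1.14). Hspe1, its lid HSP10 (chromosome 1, 55088132 to 55091307), had 560 and 495 reads, a ratio of 1.09 (0.964 to 1.23). Both chaperonin intervals held 1, and their upper ends lay below the lower end of Hspa8, at 1.47. With total counts the log2 ratios were 0.20 for Hspd1 and 0.30 for Hspe1, with intervals above 0. With DESeq2 size factors Hspd1 was at -0.01.

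The chaperonin genes stand head to head on opposite strands, with 107 bases between the starts of their main transcripts. The proportion of the 2 mRNAs was close to equal in both libraries. Hspe1 made up 47.7% (44.8 to 50.6) of their reads in control RNA and 49.5% (46.4 to 52.7) in cold RNA, a difference of 1.81 points (-2.40 to 6.01). The bases between them are shown on the strand of Hspe1, at chr1:55088025-55088131, with heat shock pairs in capitals.
Hspe1: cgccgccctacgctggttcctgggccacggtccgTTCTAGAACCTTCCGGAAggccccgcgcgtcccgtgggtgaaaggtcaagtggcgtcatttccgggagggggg
This run holds 3 pairs that overlap. Together they give 2 matches to the triple repeat (either pair followed, after NN, by its opening GAA or TTC again, on both strands), which 0.603% of all windows hold. Hspd1-202, a form with 1 read in the control, is annotated across the same bases. The chaperonin genes therefore carried the longest run of heat shock repeats of the 6 members with a window. No window was at hand for Hsp90aa1, Hsp90ab1, Hspa8 or Hspa9. The ratios of Hspd1 and Hspe1 were 1.01 and 1.09, and the part of the repeats in them was not tested.

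Counted together, the 10 genes took 0.245% (0.238 to 0.253) of the reads of the control and 0.373% (0.363 to 0.384) of the cold library. These are shares of unscaled reads, and with TMM scaling the ratio of the sum was 1.34 (1.29 to 1.40). The split between compartments differed within that sum, on a scale that does not depend on library size. Chaperones of the cytosol made up 40.4% (38.9 to 41.9) of the 4167 reads in control RNA and 47.0% (45.5 to 48.4) of the 4538 in cold RNA, 6.59 points more (4.51 to 8.67). The endoplasmic reticulum moved from 8.02% (7.21 to 8.88) to 9.72% (8.87 to 10.6), by 1.70 points (0.506 to 2.89). Mitochondria moved the other way, from 51.6% (50.1 to 53.1) to 43.3% (41.9 to 44.8), a difference of -8.30 points (-10.4 to -6.20). The largest set in the control was thus that of mitochondria, and in the cold library that of the cytosol. Shares add up to 100%, so a lower share of mitochondria does not mean fewer reads: their summed ratio was 1.13 (1.06 to 1.20), against 1.56 (1.46 to 1.67) for the cytosol and 1.63 (1.41 to 1.88) for the endoplasmic reticulum. Between the most abundant HSP70 genes, Hspa9 made up 59.0% (56.5 to 61.3) of the reads of Hspa9 and Hspa8 in control RNA and 51.8% (49.6 to 54.1) in cold RNA.

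**Figure D3:**
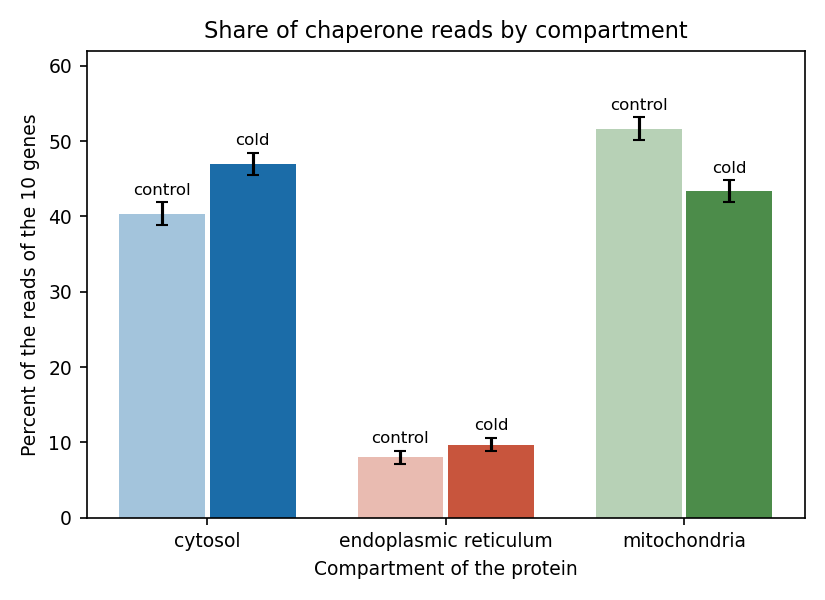
Share of the reads of the 10 genes that fell to each compartment (percent), in the control (pale bars) and cold (full bars) library, with exact 95% binomial intervals. The mitochondrial share is 51.6% in control RNA and 43.3% in cold RNA, and that of the cytosol 40.4% and 47.0%.

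The shares of a gene's reads on its transcript forms differed by no more than counting error. Each share compared had a difference whose interval held 0. Hsp90ab1, Hspa9, Hspd1 and Hspe1 had a single main form with 98.8% or more of reads in each library. Hspa8 was unusual in that most of its reads fell on Hspa8-208, a form annotated as a retained intron. It took 492 of 681 reads in the control, 72.2% (68.7 to 75.6), and 663 of 898 in the cold library, 73.8% (70.8 to 76.7). Its end at 40805199 lies 1 base from that of the coding forms Hspa8-201 and Hspa8-202, and it has 4 exons in place of their 9. How the authors' counting placed reads that fit several forms, such as reads that stop short of the 5' end, is not given in the sources used here, so the level of intron retention is uncertain. The coding forms alone had 189 and 234 reads. Hsp90b1 also had a retained-intron form, Hsp90b1-202, with 48 of 100 reads in control RNA and 47 of 125 in cold RNA. Its coding form Hsp90b1-201 had 52 and 78 reads, a ratio of 1.85 (1.29 to 2.68), and a share of 52.0% (41.8 to 62.1) and 62.4% (53.3 to 70.9). The difference of 10.4 points (-2.54 to 23.0) was within counting error.

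In the other genes with several forms, coding forms had like ratios. The 2 main forms of Hsp90aa1 had ratios of 1.83 (1.29 to 2.61) and 2.02 (1.52 to 2.70), those of Hspb1 1.82 (1.39 to 2.40) and 2.03 (1.47 to 2.83), and those of Hspa5 1.92 (1.46 to 2.52) and 1.53 (1.22 to 1.93). Within each gene these intervals overlapped. Dnaja1 was spread over 3 forms, with Dnaja1-201 at 58.5% and 57.5% of its reads.

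**Figure D4:**
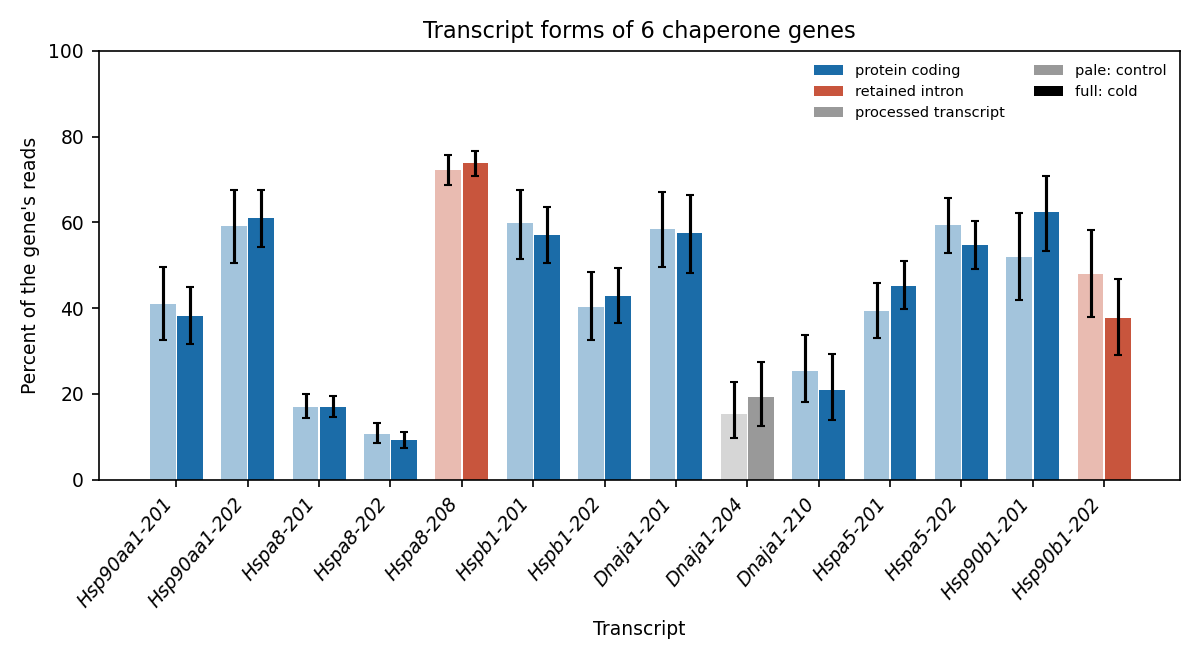
Percent of a gene's reads that fell on each transcript form in the control (pale bars) and cold (full bars) library, for 6 genes with several forms, coloured by annotated type, with exact 95% binomial intervals. Hspa8-208 takes 72.2% and 73.8% of the reads of its gene.

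Further chaperone genes of the same compartments were compared by lists, counted over genes with at least 20 summed reads and to be read against the 11.3% of all genes on each side. Intervals counted with total counts are to be read against 1364 of 7529 genes above 1 and 467 below. The lists too were chosen with earlier results of these data known. Other small heat shock protein genes had the highest median log2 ratio of the 12 lists, 1.82, and all 4 measured members had intervals above 1. Cryab, alphaB-crystallin, had 52 and 147 reads, a ratio of 3.49 (2.52 to 4.88). Hspb6 had 37 and 109 reads, at 3.63 (2.48 to 5.43), and Hspb7 had 3 and 53, at 21.8 (7.06 to 109). Hspb8 was at 1.50 (1.13 to 2.00). Skeletal and heart muscle are known for high levels of Cryab, Hspb6 and Hspb7. Skeletal muscle markers were higher in the cold library too: all 20 measured of 21 had intervals above 1, with a median log2 ratio of 2.20 and summed reads of 905 and 2888, or 0.0533% and 0.238% of the library. None of the 21 was at 0 in either library, and Acta1, skeletal actin, had 145 and 550 reads. The part of muscle RNA in these small heat shock protein genes, and in Hspb1, Hspa8 and Hsp90aa1, was not tested.

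Lists of partners of the HSP90 and HSP70 genes of the cytosol had medians between 0.03 and 0.25, against 0.70 for the 5 chaperones of the cytosol. No test of these differences was made. HSP90 co-chaperones had a median of 0.25, with 2 of 14 intervals above 1 (Ppid and the phosphatase Ppp5c) and 0 below, or 6 above with total counts. Ppid, a cyclophilin that binds HSP90, was at 1.85 (1.05 to 3.33), and Stip1, the adaptor between HSP70 and HSP90, at 1.50 (0.999 to 2.25). Fkbp4, with 97 and 102 reads, was at 1.30 (0.972 to 1.73), and Cdc37, which brings kinases to HSP90, was at 0.776 (0.571 to 1.05). HSP70 co-factors such as Bag1, with 328 and 283 reads and a ratio of 1.06 (0.904 to 1.25), had a median of 0.07 and 0 of 8 intervals away from 1. Other J-domain genes had a median of 0.03, with 1 of 9 above 1, Dnaja4 at 2.47 (1.15 to 5.63) on 11 and 22 reads. The TRiC chaperonin and prefoldin, which fold actin and tubulin, had a median of 0.13, with 1 of 14 above 1, Cct3 at 1.51 (1.12 to 2.03). Tcp1, the best counted of them, had 164 and 140 reads and a ratio of 1.05 (0.834 to 1.33).

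The heat-inducible HSP70 genes were near the lower limit of detection. Hspa1a had 0 reads in control RNA and 6 in cold RNA, and set against a floor of 3 reads per library it was at least 2.47-fold higher. That bound leaves out the counting error of the 6 reads, with which the interval began at 1.45. Hspa1b had 2 and 12 reads, a ratio of 7.40 (1.65 to 68.1). These genes are near-identical copies and the split of reads between them is uncertain. Summed, a step chosen after the values were seen, they had 2 and 18 reads and a ratio of 11.1 (2.66 to 98.6). Floors and intervals cover counting error only. Other HSP70 and HSP110 genes had a median of -0.13 over 6 members with at least 20 reads (0.05 with total counts), with 2 intervals above 1. These were Hspa4 at 1.43 (1.09 to 1.88) and Hsph1, an HSP110 that recharges HSP70, at 1.97 (1.09 to 3.64) on 20 and 32 reads. The list of heat-inducible genes of the cytosol, which holds 3 of the 10 chaperones, had a median of 0.43, with 4 of 12 above 1 and 0 below: Hsp90aa1, Hspb1, Hsph1 and Cryab. Chordc1 and Hspa4l of that list had log2 ratios of -0.08 and -0.42, with intervals that held 1.

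In the endoplasmic reticulum, the lectins and folding enzymes had a median of 0.23, with 4 of 13 intervals above 1 and 0 below. These were Calr, at 1.79, Txndc5, a disulfide isomerase, at 1.60 (1.02 to 2.53), Canx, and Serpinh1, the collagen chaperone, at 1.39 (1.18 to 1.65). Selenof, the member with most reads after Calr, had 317 and 301 reads and a ratio of 1.17 (0.997 to 1.38). HSP70 partners of this compartment had a median of 0.09, with Dnajc3 the 1 of 12 above 1. Manf, a secreted co-factor of Hspa5, was at 1.22 (0.873 to 1.70), and Dnajb9, a J-domain gene, at 1.18 (0.832 to 1.67). Calr and Dnajc3 thus lay in the range of Hspa5 and Hsp90b1 or above it, while the intervals of 11 of the 12 HSP70 partners with at least 20 reads held 1. Sdf2l1, a partner under that minimum with 1 and 12 reads, had a ratio of 14.8 (2.19 to 633).

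Other chaperones of mitochondria lay near the median gene, with a median of -0.06 (0.12 with total counts), 1 of 9 intervals above 1 and 1 below. Dnaja3, the J-domain partner of Hspa9, had 283 and 326 reads and a ratio of 1.42 (1.21 to 1.67). Grpel1, its nucleotide exchange factor, had 495 and 386 reads and a ratio of 0.962 (0.840 to 1.10). Hscb, a J-domain protein of iron-sulfur cluster transfer, was 2.29-fold lower (1.12 to 5.04) on 31 and 11 reads, and with total counts its interval held 1. Trap1, the HSP90 of mitochondria, had 216 and 145 reads and was 1.21-fold lower (0.974 to 1.50). Of the HSP90 genes, Hsp90aa1, Hsp90ab1 and Hsp90b1 thus had intervals above 1, and that of Trap1 held 1 and overlapped none of theirs.

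**Figure D5:**
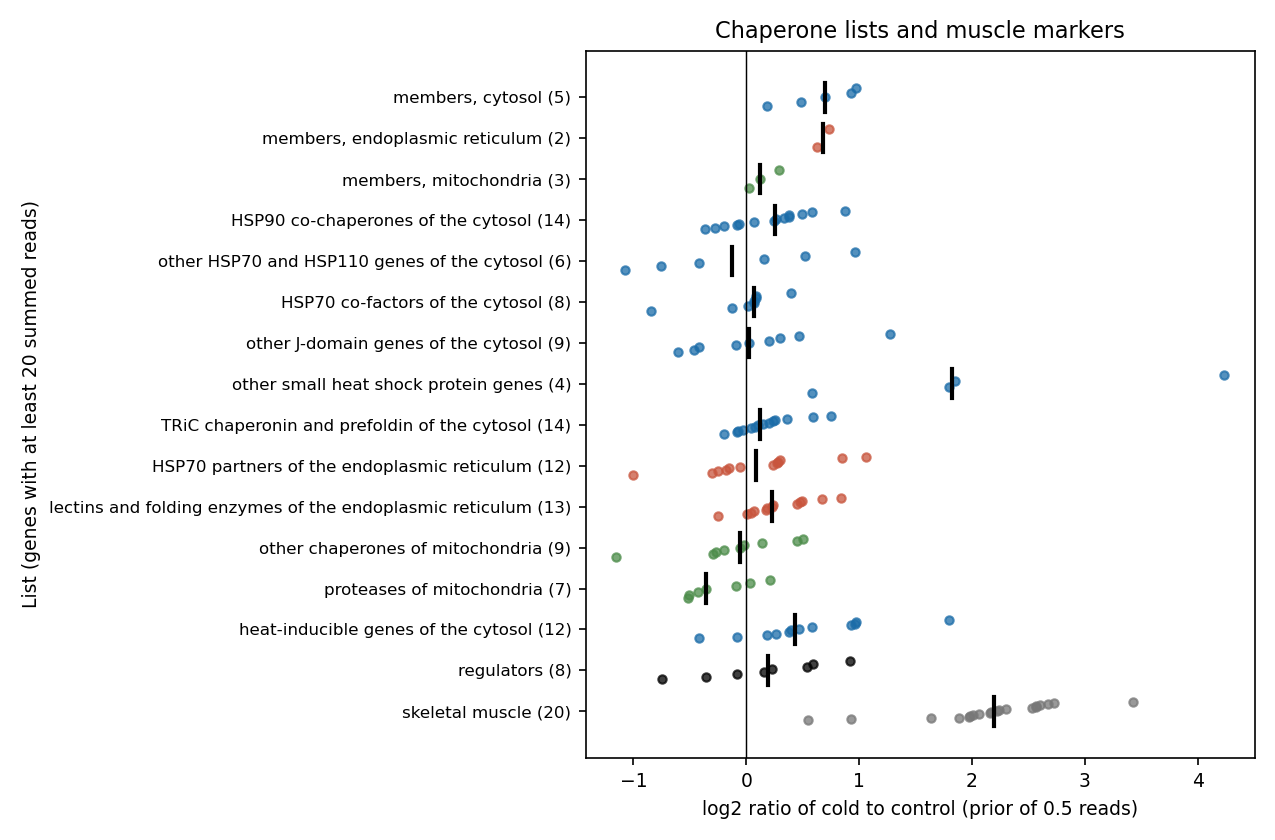
log2 ratio of cold to control for each gene with at least 20 summed reads (points) on the chaperone lists, with the skeletal muscle markers for comparison; black bars are list medians and the number of genes is in brackets. The medians are 0.70 for the 5 genes of the cytosol, 0.68 for the 2 of the endoplasmic reticulum and 0.12 for the 3 of mitochondria, and the small heat shock protein genes and muscle markers stand apart at 1.82 and 2.20.

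Regulators of these genes had 2 of 8 intervals above 1 and 2 below, with a median of 0.19, and with total counts 3 above and 0 below. With total counts, 1364 of all 7529 genes lay above 1 and 467 below. Hsf1, the main heat shock factor, had 21 and 16 reads, which leaves a ratio of 0.940 (0.458 to 1.89). Atf6, which acts on the endoplasmic reticulum stress element, was at 1.90 (1.11 to 3.32) on 24 and 37 reads. Xbp1, another factor of the unfolded protein response, was 1.69-fold lower (1.13 to 2.55) on 79 and 38. Atf5, known in the stress response of mitochondria, had 413 and 485 reads and a ratio of 1.45 (1.27 to 1.66). Hsbp1, which binds Hsf1, was 1.29-fold lower (1.02 to 1.63). With total counts the intervals of Xbp1 and Hsbp1 held 1, and that of Atf4, a factor of the stress response named after its value was seen, lay above 1 at 1.32 (1.01 to 1.73).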

How the data were processed

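Native poly(A)+ RNA of 1 control and 1 cold library was prepared from 500 ng with the SQK-RNA002 kit after 2 rounds of oligo(dT) selection, per the labels' protocols. The authors deposited whole-number read counts per transcript, not normalized. A transcript without reads has no entry. Named in the submitters' processing notes are minimap2 and GRCm38. Not given in the sources used here are its version, the annotation and the handling of reads that fit several transcripts. Totals were 1698124 and 1215617 reads.

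Transcripts were matched without version to GENCODE mouse M21 and summed to genes. Unmatched transcripts held 0.0571% and 0.0652% of reads. Library sizes were multiplied by edgeR 4.0.16 TMM factors (0.940 and 1.06). Ratios used scaled counts, and log2 ratios a prior of 0.5 reads. Intervals of ratios were derived from the cold share of both counts (exact, Clopper-Pearson), intervals of shares are exact, and those of share differences are Newcombe's. Called means an interval away from 1, or in addition at least 2-fold, with at least 20 summed reads. The code was tested on simulated counts. Reads of pseudogenes sharing at least 90% of their 31-base words with a member were to be added as an alternative, but no pseudogene with reads reached that share.

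The members and lists were chosen with earlier results of these data known. The 10 genes are always named. From each of the 12 other chaperone lists, up to 2 genes with the highest ratio, 2 with the lowest and 2 with most reads could be named, and Hspa1a, Hspa1b, Hsf1, Cryab, Hsph1 and Trap1 whatever their values. From the 6 marker lists it was the 2 with most reads. Canx, Pdia6, Serpinh1, Ppp5c, Sdf2l1 and Atf4 were named after their values were seen. Lists covered HSP90 co-chaperones, HSP70 and HSP110 genes, HSP70 co-factors, J-domain genes, small heat shock proteins, TRiC and prefoldin, partners and folding enzymes of the endoplasmic reticulum, chaperones and proteases of mitochondria, heat-inducible genes and regulators. Alternatives were other scalings (total counts, with or without mitochondrially encoded genes, and DESeq2 1.42.0 size factors), single or coding transcripts alone, other minimum reads and a prior of 2.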

Additional observations from a re-analysis of the deposited data

How the results depend on the processing

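No paired analysis was possible because each group has 1 library. All 10 log2 ratios were above 0 with the 2 total-count scalings, with the most abundant or coding transcripts alone, and with a prior of 2 reads. With DESeq2 size factors Hspd1 was at -0.01, with an interval that held 0, and the other 9 were above 0. The number of intervals above 1 was 7 in each setting where it was counted but total counts (9) and total counts without mitochondrially encoded genes (8). Total counts moved log2 ratios beyond their counting interval for Hsp90ab1 (0.66), Hspa8 (0.88), Hspa9 (0.47), Hspd1 (0.20) and Hspe1 (0.30), and the other total-count scaling did for Hspa9 (0.42). The mitochondrial median was 0.30 with total counts, and that of brown adipocyte markers 0.40. Over all genes, total counts gave 1364 intervals above 1 and 467 below in place of 848 and 854, and 522 genes at least 2-fold higher and 189 lower in place of 316 and 307. Without mitochondrially encoded genes 562 intervals were below 1. With at least 100 summed reads, 513 intervals were above and 537 below 1, with 93 genes at least 2-fold higher and 63 lower, since fewer genes enter. With total counts, a count added after seeing the data, the intervals of Hscb, Clpp, Spg7, Xbp1 and Hsbp1 no longer lay below 1. With at least 100 summed reads, 5 list medians changed sign, to 0.52 for other HSP70 and HSP110 genes, -0.03 for J-domain genes, -0.07 for regulators, 0.16 for fibroblasts and -0.02 for mural and smooth muscle. Fewer genes of these lists enter at that minimum, and 0.52 is the value of Hspa4 alone. Depth leaves wide intervals for genes with few reads, such as Hsf1 and the Hspa1 genes.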

Other observations

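Proteases of mitochondria, which remove proteins that chaperones fail to fold, had a median log2 ratio of -0.35 over 7 genes. Of their intervals 5 held 1, 2 lay below 1 and 0 above, where 11.3% of all genes lay on each side. Clpp, the peptidase of the ClpXP complex, had 208 and 125 reads and was 1.35-fold lower (1.08 to 1.70), and Spg7, a subunit of an inner-membrane protease, was 1.43-fold lower (1.02 to 2.03). Clpx, the unfoldase that feeds Clpp, had 151 and 142 reads and a ratio of 1.16 (0.916 to 1.47), and the matrix protease Lonp1 a ratio of 1.02 (0.782 to 1.33). With total counts the list's median was -0.17, 0 intervals lay below 1, and that of Clpx lay above 1. The median was -0.09 over the members with at least 100 summed reads.

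Markers of cell types are counted beside the same 11.3% of all genes on each side. Brown adipocyte markers had a median log2 ratio of 0.22, with 5 of 8 intervals above 1 and 1 below. Endothelial markers had a median of 0.19 (2 of 10 above 1) and mural and smooth muscle markers 0.10 (1 of 7). Fibroblast markers had a median of -0.37, with 1 of 7 above 1 and 2 below, or 1 below with total counts. Macrophage markers, with 119 and 141 summed reads, had a median of 0.75 over the 4 of 10 genes with at least 20 reads, 2 of them above 1. Of the 6 with fewer reads, 3 had a ratio above 1 and 3 below.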
